A study of Mus musculus with 84 samples.

Results

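The data described are the RNA levels of 40 genes that act in mitosis, the division of a cell's duplicated chromosomes and cytoplasm. The genes were taken from a list of mitosis genes by symbol, and all 40 were found among the 41388 mouse genes of the deposited count table. The list was chosen with earlier results of these data known, so counts of called members describe the list and do not test it. The table holds 84 RNA sequencing libraries of sorted mouse blood progenitors in 22 groups. The study induced a tetracycline-regulated MLL-ENL transgene, which codes for a fusion protein found in acute leukemia, before birth or in adult mice, and its title says that the efficiency of leukemia initiation changes with age.

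The labels name 3 populations: committed hematopoietic progenitor cells (HPC), pre-granulocyte-monocyte progenitors (pGM) and granulocyte-monocyte progenitors (GMP). At P0 they came from neonatal liver and at 10 weeks from bone marrow, all labelled as fetal induction and as no doxycycline, from MLL-ENL mice and from controls labelled wild type, with 4 libraries in each group except for 3 of P0 control pGM. HPC of bone marrow at 6 and 12 months were labelled as adult induction with 8 weeks of doxycycline, for MLL-ENL and control alike, with 4 libraries in each group. A further set at 10 weeks holds HPC, pGM and GMP labelled MLL-ENL (x2), with 3 libraries each, beside 4 control libraries each, from fetal induction without doxycycline. What x2 stands for, the strain and the driver of the transgene are not given in the labels. Tissue changes with age between P0 and 10 weeks, and the time of induction and doxycycline change with age between 10 weeks and the older mice, so their parts cannot be told apart.

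Cells enter mitosis when the kinase CDK1, bound to its cyclins, is switched on. Chromosomes then attach to the spindle through kinetochores, a checkpoint holds the cell until all are attached, and the anaphase promoting complex triggers separation before the cell body is cleaved. Most of these genes are transcribed late in the cell cycle, from promoters in which a cell cycle homology region (the letters TTTGAA or TTTAAA) and CCAAT boxes recur. Early blood progenitors range from rarely dividing stem cells to rapidly cycling committed cells, so the RNA of these genes is often read as a measure of how many cells divide. In sorted bulk samples, fewer cells in mitosis and less RNA per cell cannot be told apart.

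Promoters of members are shown first because most, but not all, of their windows held the letters named above. RefSeq windows of 300 bases (250 before to 50 after the start of the transcript, GRCm38.p6) were found for 33 of the 40 members. On either strand, TTTGAA was in the windows of 25 of 33 members (75.76%) against 17.89% of the 32851 windows of all genes, TTTGAA or TTTAAA in 28 (84.85% against 27.59%), CCAAT in 25 (75.76% against 37.41%), and both kinds in 24 (72.73% against 10.73%). Each member was counted by its first listed window, whereas the share over all genes counts every window. The 3 motifs share no position. The lines below give 120 bases, 5′ to 3′ on the gene's strand, that end just before the first base annotated in RefSeq or GENCODE, with matches in capitals (TTTGAA and TTTAAA, or TTCAAA on the other strand, and CCAAT, or ATTGG on the other strand). Such a stretch was taken for 28 members, of which 8 hold TTTGAA or TTTAAA in it, 19 CCAAT and 7 both kinds. The first 6 lines are of members that hold both kinds in this stretch, so they are not typical of the members. Nusap1 holds neither in its whole window.
Cdk1, chr10:69352939-69353058, minus strand: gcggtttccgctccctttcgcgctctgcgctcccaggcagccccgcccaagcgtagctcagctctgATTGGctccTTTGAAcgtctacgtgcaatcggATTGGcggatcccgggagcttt
Plk1, chr7:122159315-122159434, plus strand: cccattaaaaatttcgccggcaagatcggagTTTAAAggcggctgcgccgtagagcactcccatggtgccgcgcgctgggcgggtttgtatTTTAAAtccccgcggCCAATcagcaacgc
Top2a, chr11:99024190-99024309, minus strand: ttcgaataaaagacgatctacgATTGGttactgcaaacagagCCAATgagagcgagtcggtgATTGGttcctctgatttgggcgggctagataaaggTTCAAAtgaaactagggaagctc
Kif11, chr19:37376262-37376381, plus strand: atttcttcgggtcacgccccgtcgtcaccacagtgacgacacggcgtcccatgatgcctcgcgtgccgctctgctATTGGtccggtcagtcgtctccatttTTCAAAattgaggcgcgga
Cdc20, chr4:118437353-118437472, minus strand: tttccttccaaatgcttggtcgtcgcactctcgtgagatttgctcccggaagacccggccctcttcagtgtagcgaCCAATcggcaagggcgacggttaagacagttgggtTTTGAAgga
Ckap2l, chr2:129297213-129297332, minus strand: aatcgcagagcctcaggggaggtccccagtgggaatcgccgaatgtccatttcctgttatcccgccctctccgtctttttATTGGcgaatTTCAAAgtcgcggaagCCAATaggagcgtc
Nusap1, chr2:119618178-119618297, plus strand: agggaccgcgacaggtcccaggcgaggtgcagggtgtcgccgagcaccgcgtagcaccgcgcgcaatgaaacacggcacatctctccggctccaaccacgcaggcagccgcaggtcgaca
The windows of Bub1, Mad2l1, Nuf2, Nusap1 and Pttg1 held neither TTTGAA nor TTTAAA, which says only that these letters are not in the window.

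Libraries held 7619515 to 29470068 counts, with a median of 14750617. Every member passed the filter on low counts in every comparison, and the fewest counts of any member in any library were 93, so depth did not limit detection. Levels are in CPM (counts of a gene relative to the library total, with TMM scaling over all libraries), and differences are log2 fold changes from edgeR's quasi-likelihood test with Benjamini-Hochberg adjustment over all genes tested. A gene was called at an adjusted p under 0.05. Values after ± are SD for levels and the standard error for log2 fold changes. The labels give each library an identifier but do not say how many animals it stands for, so p-values measure the spread between these libraries. Transgene counts were 6 to 283 in the 41 MLL-ENL libraries and 0 to 8 in the 43 controls. At 10 weeks, 2 libraries went against their labels: the 7 granulocyte-monocyte markers summed to 21184 CPM in the library labelled 73 HPC, where the other MLL-ENL HPC had 2533 to 4203, and to 3305 CPM in the one labelled 73 pGM, where the other MLL-ENL pGM had 19666 to 29726. Counts and medians of the MLL-ENL comparisons that use them are given with and without them. No fit was made with their labels exchanged.

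As a summary, the mitosis score is the mean log2 CPM of the 40 members in a library. It was lowest in P0 MLL-ENL GMP, at 5.87 ± 0.06 (SD, n = 4), and P0 MLL-ENL HPC, at 6.00 ± 0.09 (n = 4), and highest in 12 month control HPC, at 6.86 ± 0.09 (n = 4). In P0 HPC the controls lay at 6.72, 6.47, 6.70 and 6.33 and the MLL-ENL libraries at 5.97, 6.12, 5.98 and 5.90, with no overlap. P0 GMP also separated, with controls at 6.22, 6.38, 6.24 and 6.20 and MLL-ENL at 5.94, 5.87, 5.83 and 5.82. In the other 9 comparisons of MLL-ENL with control the scores overlapped. In 10 week HPC they overlapped through the library labelled 73, at 6.52, while the other MLL-ENL libraries had 6.07 to 6.25 and the controls 6.36 to 6.79. The library labelled 73 pGM, whose granulocyte-monocyte markers lay in the range of the other MLL-ENL HPC, had 6.63. That score also lies among those of the control HPC, so the overlap would remain with these labels exchanged. No test is given for the score, and its order over the 22 groups also runs across sets of libraries.

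**Figure D1:**
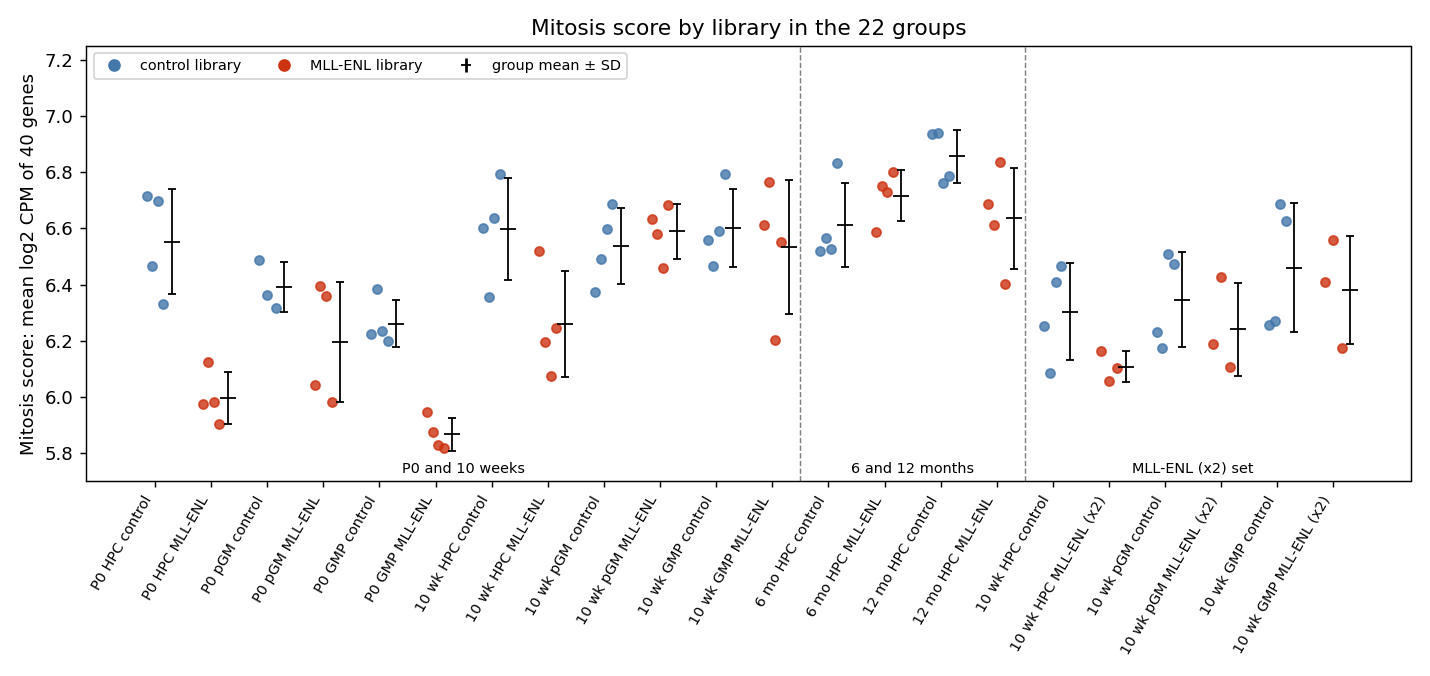
Mitosis score (y axis, mean log2 CPM of 40 genes) of every library in the 22 groups (x axis), with control libraries in blue, MLL-ENL libraries in red and group means with SD in black; dashed lines separate the 3 sets of libraries. The 4 P0 MLL-ENL HPC and the 4 P0 MLL-ENL GMP libraries lie below all P0 controls of their population, and the 12 month controls are the highest group.

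In newborn HPC, mitosis genes were lower in MLL-ENL than in control mice across all roles. Of the 40 members, 23 were called lower and none higher, against 5.18% of all 14899 genes called lower, and all 40 had a negative log2 fold change. The median over members was -0.63 (range -0.95 to -0.19), against -0.03 over all genes. DESeq2 called 22. In 25 members every MLL-ENL library lay below every control, which was so for 9.03% of all genes. The call count moved with 6 of the 8 libraries: it was 8 without MLL-ENL 5, 10 without control 2 or MLL-ENL 4, 11 without control 4, and 12 without MLL-ENL 2 or MLL-ENL 3, and 14 with no filter on low counts. The median stayed between -0.69 and -0.55 in these fits.

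The smallest p belonged to Birc5 (survivin), a subunit of the chromosomal passenger complex that corrects faulty attachments (ENSMUSG00000017716, chromosome 11, 117849251 to 117855743, plus strand, GENCODE vM21 on GRCm38). It measured 168, 139, 198 and 132 CPM in controls 2, 3, 4 and 5 and 102, 105, 77.6 and 76.4 CPM in MLL-ENL 2, 3, 4 and 5. Every MLL-ENL library was below every control, and the log2 fold change was -0.86 ± 0.16 (adjusted p = 0.000656). Spc24, which anchors the NDC80 complex at the kinetochore (ENSMUSG00000074476, chromosome 9, 21755442 to 21760303, minus strand, GENCODE vM21 on GRCm38), was at 119.9, 96.5, 126 and 96.4 CPM in controls and 70.3, 74.5, 49.5 and 61.3 in MLL-ENL, again without overlap, a change of -0.82 ± 0.17 (adjusted p = 0.00164). Ube2c codes for the ubiquitin-conjugating enzyme of the anaphase promoting complex (ENSMUSG00000001403, chromosome 2, 164769898 to 164778822, plus strand, GENCODE vM21 on GRCm38). Its controls read 119, 105, 120.4 and 79.5 CPM and its MLL-ENL libraries 55.2, 63, 67.9 and 56, and it fell by 0.85 on the log2 scale (adjusted p = 0.00306). Ttk, the kinase that starts the spindle checkpoint (ENSMUSG00000038379, chromosome 9, 83834689 to 83872389, plus strand, GENCODE vM21 on GRCm38), had 44, 30.4, 39.2 and 35.5 CPM in controls and 24.1, 21.1, 22.1 and 23.6 in MLL-ENL. Its MLL-ENL libraries were close together and below all controls, with a log2 fold change of -0.76 ± 0.17 (adjusted p = 0.0033).

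**Figure D2:**
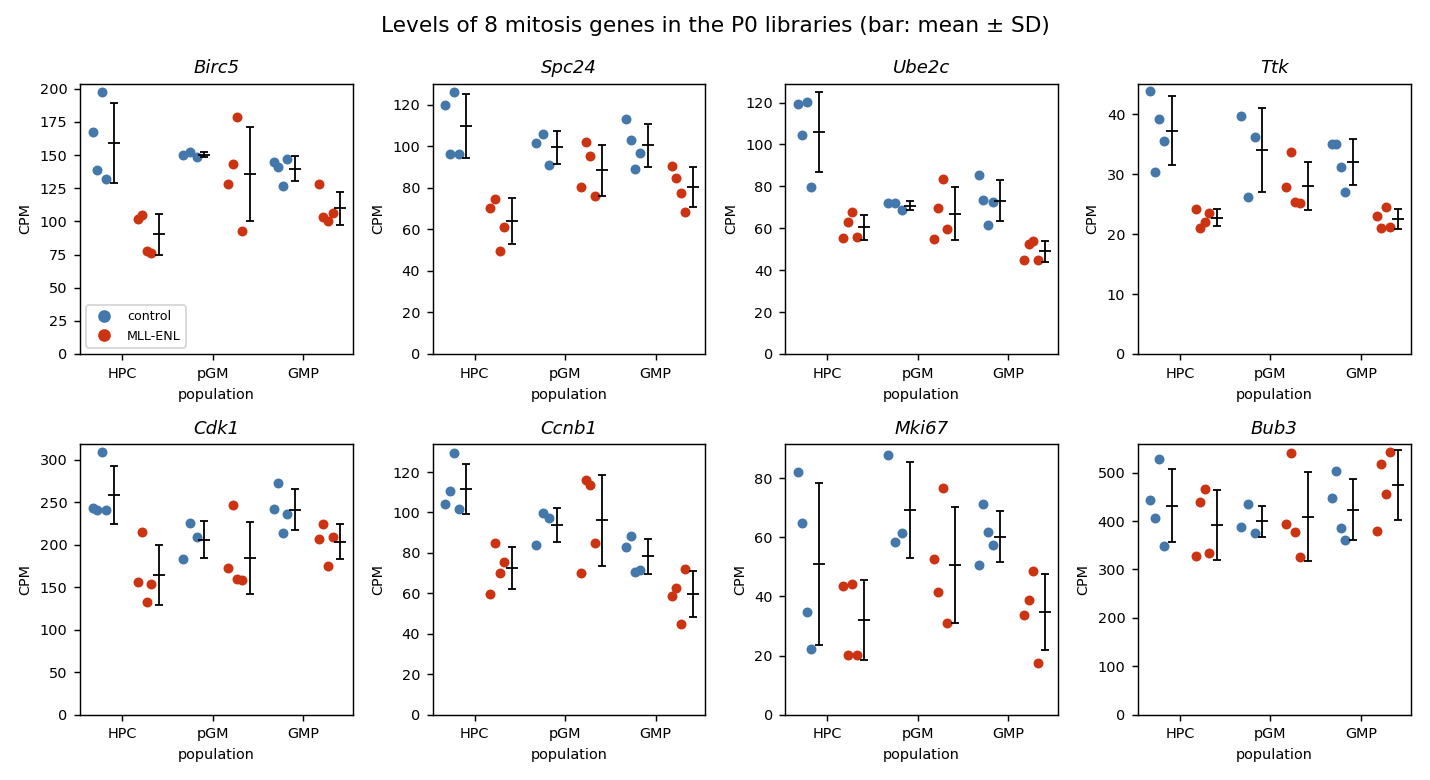
CPM (y axis, from 0) of 8 mitosis genes in the HPC, pGM and GMP libraries of P0 (x axis), control in blue and MLL-ENL in red, with mean and SD in black. Birc5, Spc24, Ube2c, Ttk, Cdk1 and Ccnb1 show no overlap between control and MLL-ENL HPC, whereas Mki67 and Bub3 overlap.

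CDK1 and its regulators were called lower as a complete group, 5 of 5. Cdk1, the kinase that drives entry into mitosis, was at 243, 240.1, 309 and 241 CPM in controls and 156, 215, 133 and 153 in MLL-ENL HPC (-0.69 ± 0.16, adjusted p = 0.00478). Its B-type cyclin Ccnb1 had 104, 111, 129 and 102 CPM against 59.6, 85, 70.3 and 75.3 (-0.66 ± 0.16). In both genes all MLL-ENL libraries were below all controls. Ccna2, the cyclin of S and G2 phase, had the most negative log2 fold change of all members, -0.95 ± 0.25, at 12.7 ± 3.98 against 23.8 ± 1.49 CPM. Cdc25c, the phosphatase that activates CDK1, and the second B-type cyclin Ccnb2 fell by 0.76 and 0.58 on the log2 scale, and the Ccnb2 libraries overlapped.

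Among the mitotic kinases, Aurka, which acts at spindle poles, was called lower (-0.55 ± 0.16), and the polo-like kinase Plk1 had a similar estimate with a larger error (-0.59 ± 0.34, adjusted p = 0.319). The chromosomal passenger complex had 3 of 4 members called: beside Birc5, its kinase Aurkb fell by 0.74 and its subunit Cdca8 (borealin) by 0.66 on the log2 scale. Its scaffold Incenp was not called, at 22 ± 2.43 against 24.4 ± 3.61 CPM (-0.20 ± 0.18). Of the 5 checkpoint genes, Ttk and the kinase Bub1 (-0.69 ± 0.22) were called. Bub1b (BubR1) did not overlap but missed the threshold (adjusted p = 0.137). Bub3, which also acts outside mitosis, had the least negative value of all 40, -0.19 ± 0.15, with controls at 444, 406, 528 and 349 and MLL-ENL at 327, 440.2, 466 and 333 CPM.

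In the kinetochore group, 2 of 7 members were called, Spc24 and Nuf2, another subunit of the NDC80 complex (-0.72 ± 0.19). The remaining subunits, Ndc80 and Spc25, had -0.37 ± 0.17 and -0.34 ± 0.23 and were not called. Cenpe, a kinetochore motor, and Cenpf had larger values, -0.76 ± 0.29 and -0.77 ± 0.26, but their libraries overlapped (adjusted p = 0.102 and 0.0623). Cenpa, the centromeric histone, had -0.32 ± 0.20. Of the 3 genes of the anaphase step, Ube2c alone passed. The activator Cdc20 had -0.55 ± 0.20 (adjusted p = 0.0884) and securin, Pttg1, -0.26 ± 0.17.

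Spindle genes were called in 6 of 8 cases: the motor Kif11, the microtubule depolymerase Kif2c, the spindle assembly factor Tpx2, and the microtubule-binding genes Nusap1, Hmmr and Ckap2l, with log2 fold changes from -0.70 (Hmmr) to -0.62 (Ckap2l). The chromokinesin Kif4 (-0.59 ± 0.24) and Prc1, which bundles midzone microtubules (-0.48 ± 0.20), were not called although neither overlapped. For cytokinesis, the motors Kif20a (-0.69 ± 0.19) and Kif23 (-0.62 ± 0.18) were called, and Ect2, which is needed for furrowing, and the ring scaffold Anln were not (-0.36 and -0.35). Top2a, which untangles chromosomes, read 699, 602, 729.96 and 597 CPM in controls and 409, 523, 459.98 and 376 in MLL-ENL (-0.62 ± 0.19). Mki67, the gene of the Ki-67 antigen used to count dividing cells, was not called: controls ran 82, 64.9, 34.8 and 22.2 CPM and MLL-ENL 43.4, 20.3, 44.1 and 20.3 (-0.71 ± 0.36, adjusted p = 0.227). Its control libraries were spread more widely, for their mean, than those of the other members shown.

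**Figure D3:**
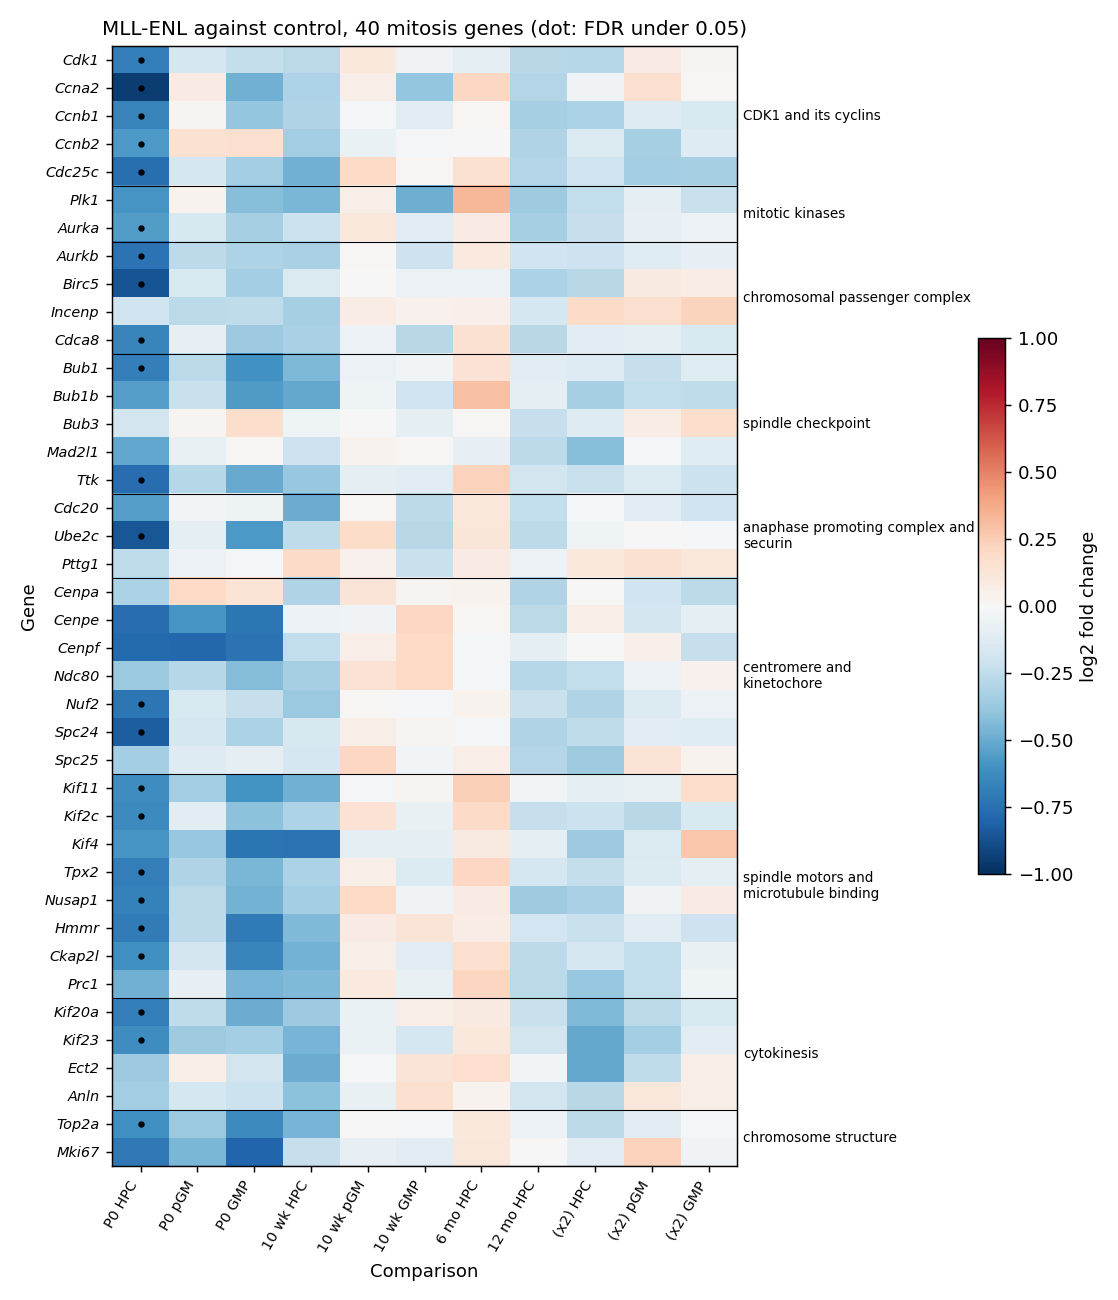
Log2 fold change of MLL-ENL against control (colour, blue lower and red higher) for the 40 mitosis genes (rows, by role) in the 11 comparisons (columns); a dot marks an adjusted p under 0.05. All 23 dots are in the P0 HPC column, where every member is negative.

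Other genes of the cell cycle were read from related lists, which were chosen with earlier results of these data known. Of all 14899 genes, 772 (5.18%) were called lower and 361 higher in this comparison of P0 HPC. Of 36 other mitosis genes, 14 were called lower and none higher (median -0.56), led by Sgo1, which protects centromeric cohesion (-0.84 ± 0.15), Cdca3 (-0.75 ± 0.14), the condensin subunit Smc2 (-0.67 ± 0.14) and the kinase Melk (-0.72 ± 0.17). Of 25 DNA replication genes, 12 were called lower and none higher (median -0.58), with the replicative helicase factors Gins1 (-0.78 ± 0.17), Mcm10 (-0.77 ± 0.17) and Cdc45 (-0.73 ± 0.17) and the thymidine kinase Tk1 (-0.68 ± 0.17) having the smallest p. Among 16 cell cycle transcription factors, the late cell cycle activator Mybl2 fell by 1.21 on the log2 scale and the repressor Rbl2 (p130) rose by 0.98. Foxm1, the other activator of mitotic promoters, had -0.82 ± 0.29 (adjusted p = 0.0695). Of 8 G1 cyclins and kinases, Ccne1 alone was called (-0.95 ± 0.24), and of the 5 CDK inhibitors that could be tested none was (Cdkn1a -0.95 ± 0.34, Cdkn1b 0.42 ± 0.30).

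Markers of other cells moved with this comparison. The summed CPM of 8 dendritic cell and monocyte markers was 13108 to 32867 in control and 2759 to 5228 in MLL-ENL HPC, that of 6 mast cell and basophil markers 622 to 1873 against 40.7 to 96.7, and that of 7 granulocyte-monocyte markers 2806 to 4705 against 891 to 1973. The 4 megakaryocyte markers summed to 64.6 to 111 CPM in control and 127 to 194 in MLL-ENL HPC, and 8 erythroid markers overlapped (1556 to 2447 against 1656 to 2496). No marker of these lists was at 0 in every library of a group, and 7 of the 8 dendritic cell and monocyte markers were called lower, as was the T and NK cell marker Klrd1 (-2.56 ± 0.61). Of 7 genes used to tell HPC from GMP, 4 were called, Mecom (2.75 ± 0.36) and Hlf higher and Cd34 (-0.74 ± 0.18) and Cd48 (-0.70 ± 0.20) lower. Their part in the lower mitosis genes was not tested. Exons of 12 members overlap another gene, 11 of them on the other strand, and whether counting used strand is not given: Ccna2, Cdc25c, Plk1, Cdca8, Cdc20, Ube2c, Kif4, Nusap1, Ckap2l, Prc1 and Kif20a, and Top2a with a small nucleolar RNA. Of the 28 members without overlap 15 were called lower (median -0.63), and of the 12 with overlap 8 (median -0.64). By promoter letters, the 28 members with TTTGAA or TTTAAA had a median of -0.62 and the 5 without -0.67.

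In newborn GMP the members were again mostly lower, but none was called. Of 40 members 36 were negative (median -0.40, against 0.01 over all genes), 21 had an unadjusted p under 0.05 against 3.01% of all genes in this direction, and 14 did not overlap, against 1.95% of all genes. At the threshold, edgeR called 0.0336% of all genes lower and 0 members (smallest adjusted p = 0.0766, Hmmr), and DESeq2 called 1, as did edgeR without control 2 or without MLL-ENL 2. Hmmr, a spindle and hyaluronan-binding protein, read 38.7, 50.3, 46.7 and 55.9 CPM in controls and 34.8, 28, 26.1 and 27.9 in MLL-ENL (-0.71 ± 0.16). Mki67 had 50.7, 71.3, 61.7 and 57.2 CPM in controls 2 to 5 and 33.6, 38.9, 48.4 and 17.6 in MLL-ENL 2 to 5, without overlap (-0.79 ± 0.36, adjusted p = 0.776). Cdk1 overlapped, at 242, 272, 214 and 236 against 206, 224, 174 and 209 CPM, as did Ccnb1 (82.7, 88.2, 70.8 and 71.7 against 58.6, 62.7, 44.7 and 72) and Birc5 (145, 141, 126 and 147 against 129, 104, 100.4 and 106). Same-numbered libraries deviated together here, and with the number as a block 4 members were called lower, against 0.47% of all genes: Ckap2l (-0.67 ± 0.13, adjusted p = 0.0296), Top2a (-0.63 ± 0.13), Bub1b (-0.56 ± 0.12) and Mki67 (-0.86 ± 0.19). In this population the marker sums overlapped for dendritic cells and monocytes (1187 to 1449 CPM in control, 1249 to 1593 in MLL-ENL) and for mast cells and basophils (2845 to 14623 and 3332 to 10463).

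Newborn pGM had no call among the members, against 0.349% of all genes called. The median was -0.18, with 33 of 40 negative and 1 at an unadjusted p under 0.05, against 3.46% of all genes in this direction (DESeq2 0 calls), and Cenpf alone did not overlap, against 3.73% of all genes in this direction. Cdk1 was at 183, 225 and 209 CPM in controls and 172, 246, 159 and 159 in MLL-ENL, and Ccnb1 at 84, 99.9 and 97.4 against 70.1, 116, 114 and 84.8. Birc5 was nearly constant in controls, 150.4, 152 and 148 CPM, and spread over 128, 143, 178 and 93 in MLL-ENL. The Mki67 libraries overlapped as well, 87.9, 58.5 and 61.3 against 52.7, 41.4, 76.8 and 31.1 CPM. With the number as a block, Mki67 was called lower, against 0.781% of all genes (-0.75 ± 0.15, adjusted p = 0.0452). Erythroid marker sums were 1170 to 2706 CPM in control and 2466 to 13533 in MLL-ENL pGM, with none of the 8 markers called. Of the other markers Cd74 and H2-Aa of dendritic cells and monocytes were called lower (-2.27 ± 0.53 and -2.24 ± 0.53), and Mecom (3.09 ± 0.43) and the megakaryocyte marker Gp9 (1.11 ± 0.25) higher. Their part was not tested.

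At 10 weeks no member was called in any population. HPC had 39 of 40 members negative (median -0.33, against 0.01 over all genes), 14 at an unadjusted p under 0.05 against 1.74% of all genes in this direction, and 0.175% of all genes called. Without the libraries labelled 73 the median was -0.47, with still 0 calls (smallest adjusted p = 0.1). In that fit 23 members had an unadjusted p under 0.05, but its share over all genes is not given, so this count cannot be judged. Cdk1 read 188, 278, 174 and 275 CPM in controls 76, 80, 87 and 88 and 194, 211, 193 and 162 in MLL-ENL 73, 74, 78 and 81. Ccnb1 had 82.4, 84, 74 and 112 against 87.4, 66.9, 62.2 and 69.9 CPM, where the library labelled 73 was the highest of its group. Birc5 (126, 179, 119.97 and 160.5 against 115, 156, 140.1 and 117 CPM) and Mki67 (85.1, 48.7, 114 and 53 against 84.8, 34, 72.9 and 62.5 CPM) overlapped over most of their range. Nusap1 and Hmmr were the 2 members without overlap, both lower, against 0.805% of all genes, and DESeq2 called 0. Without the library labelled 73 there were 10 such members, against 2.17% of all genes.

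In pGM and GMP of 10 weeks the median differences were near 0. The pGM median was 0.03 (-0.02 to 0.07 with any 1 library left out, and 0.03 without the libraries labelled 73), with 24 of 40 positive. None had an unadjusted p under 0.05, against 460 of all 14899 genes in either direction, and 0.094% of all genes were called. For GMP the median was -0.05, from -0.155 without MLL-ENL 74 to 0.02 without MLL-ENL 78, with 27 negative. Again none had an unadjusted p under 0.05, against 449 of all 14899 genes in either direction, and 0.0201% of all genes were called. DESeq2 called 0 in both. In pGM, Cdk1 had 189, 239.8, 225 and 216 CPM in controls and 241, 243, 247 and 212 in MLL-ENL, Ccnb1 76.6, 85.3, 102 and 95 and 94, 82.7, 82 and 99.6. Birc5 was even across the pGM libraries, 147, 149.6, 137 and 144 and 146, 139, 157 and 142 CPM, and Mki67 read 88.2, 68.5, 64.6 and 110.4 and 73.2, 81.9, 63.6 and 96.6. Every one of these pairs of groups overlapped. GMP values overlapped too: Cdk1 was at 219, 341, 279.8 and 295 CPM in controls and 227, 301, 284 and 293 in MLL-ENL, Ccnb1 at 84.4, 113, 112 and 123 and 99.3, 115, 80.4 and 104. Birc5 had 132, 194, 162 and 187 and 132, 196, 145 and 172 CPM, and Mki67 109, 31.9, 63.4 and 68.8 and 77.1, 72.5, 44.2 and 59.4, with its lowest and highest libraries both among controls.

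After adult induction no member was called at 6 or 12 months, ages at which 0.00766% of all genes were called. At 6 months 34 of 40 members were positive (median 0.09, and 0.17 without control 1717) and 3 had an unadjusted p under 0.05, against 0.835% of all genes in this direction. Plk1, Bub1b, Ckap2l and Prc1 were higher without overlap, against 0.613% of all genes. At 12 months 39 were negative (median -0.24) and 13 had an unadjusted p under 0.05, against 2.86% of all genes in this direction, while Cenpa and Nusap1 were lower without overlap, against 1.39%. Cdk1 had 198, 186, 198 and 313 CPM in the 6 month controls 1618, 1713, 1715 and 1717 and 179, 209, 231 and 223 in MLL-ENL, and 253, 243, 194 and 269 against 216, 200.3, 206 and 170.4 at 12 months. Ccnb1 was at 79.8, 68.4, 67.1 and 95.2 against 72.9, 79.7, 83.9 and 79.5 CPM at 6 months and 108, 107, 86.2 and 99.1 against 88.1, 77, 85 and 67.2 at 12 months. The last control listed at 6 months, 1717, was the highest in both genes and in Birc5. Birc5 read 124, 133, 131 and 206 against 123, 153, 139 and 158 CPM at 6 months and 171, 173, 135 and 182 against 147, 129, 150.5 and 105 at 12 months. Mki67 overlapped at both ages, with 71.1, 83, 88.3 and 83.7 against 88.4, 100.1, 78.9 and 85.2 CPM and 103, 67.8, 85.3 and 61.4 against 79.2, 83.1, 90.7 and 64.3. DESeq2 called 0 members at both ages.

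In the MLL-ENL (x2) set, which has its own controls, no member was called either, where 0.996% of all genes were called in HPC, 0.835% in pGM and 0.898% in GMP. The medians were -0.23 in HPC (37 of 40 negative), -0.11 in pGM (29 negative) and -0.08 in GMP (27 negative), and DESeq2 called 0 in each. In HPC 3 members had an unadjusted p under 0.05, against 4.38% of all genes in this direction. None did in pGM or GMP, against 1110 and 964 of all 14260 genes in either direction. The GMP median ran from -0.17 without MLL-ENL (x2) 5897 to 0.045 without MLL-ENL (x2) 5900. Ndc80, Spc24, Kif23 and Ect2 were lower without overlap in HPC, against 4.07% of all genes, and Cenpe in pGM, against 5.08%. In HPC, Cdk1 had 156, 129.8, 239.5 and 211 CPM in controls 4892, 4894, 5898 and 5899 and 133, 148 and 172 in MLL-ENL (x2), and Ccnb1 48.7, 46.5, 88.5 and 86.3 and 48.4, 55.1 and 58.9. Controls 5898 and 5899 were well above the other two in both genes. Birc5 was split the same way, 94, 77.5, 171 and 131 CPM against 79.3, 98.6 and 114, whereas Mki67 was lowest in control 5898, 94.2, 79.8, 36.3 and 57.6 CPM against 99.8, 39.2 and 47.2. For pGM the values were 164, 166, 218 and 185 against 159.6, 188 and 231 CPM for Cdk1 and 58.1, 52.4, 67.2 and 67.9 against 50.8, 64.3 and 52.2 for Ccnb1. Birc5 in pGM read 90.7, 95.6, 137 and 121 against 91.7, 108 and 154 CPM and Mki67 119.8, 132, 101 and 118 against 182, 117 and 114. All overlapped. GMP gave 176, 186, 264 and 249.7 against 201, 215 and 250.3 CPM for Cdk1 and 54.5, 55.4, 73.6 and 76 against 65.1, 66.5 and 42.1 for Ccnb1. Birc5 (119, 121, 176 and 175 against 129, 153 and 183 CPM) and Mki67 (147, 140.1, 157 and 107 against 137, 127 and 136 CPM) overlapped too.

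Whether the effect of MLL-ENL differed between ages or populations was tested as an interaction for each gene. No member was called in any of the 9 such tests by edgeR or by DESeq2, so a difference between the fall in P0 HPC and the values elsewhere was not shown. Between P0 and 10 weeks in HPC, where 1.6% of all genes were called, 36 members were more negative at P0 (median difference -0.29), and 27 without the libraries labelled 73 (-0.12). Birc5 came closest, with a difference of -0.72 ± 0.23 (95% interval -1.17 to -0.27, adjusted p = 0.105), and without 10 week control 80 there was 1 call. Between HPC and GMP at P0 the median difference was -0.23, with 0.463% of all genes called, and Ccnb2 had -0.74 ± 0.25 (adjusted p = 0.216), being lower in MLL-ENL HPC (-0.58) and not in GMP (0.16). Between HPC and pGM at P0 it was -0.43, with 38 members more negative in HPC, 8 at an unadjusted p under 0.05 (4.37% of all genes in this direction) and 0.0403% of all genes called. Since libraries of these populations share identifiers, both tests were also fitted with the identifier within genotype as a block, an alternative chosen after the data were seen. No member was called, against 1.1% of all genes for HPC and pGM and 1.24% for HPC and GMP (smallest adjusted p = 0.104 and 0.163). In this fit the median differences were -0.28 and -0.16, with 12 and 6 members at an unadjusted p under 0.05, all more negative in HPC, against 8.36% and 8.58% of all genes in this direction. Between P0 and 10 weeks the median difference was -0.24 in pGM (-0.18 without the libraries labelled 73) and -0.31 in GMP, with 0.00671% of all genes called in each. In GMP 8 members had an unadjusted p under 0.05, against 1.44% of all genes in this direction. Against 6 months, all 40 members were more negative at 12 months (median -0.29) and 12 had an unadjusted p under 0.05 (1.13% of all genes in this direction), where 0% of all genes were called. For (x2) against MLL-ENL at 10 weeks the medians were 0.14 in HPC, -0.15 in pGM and 0.03 in GMP. Without the libraries labelled 73 they were 0.29 in HPC and -0.14 in pGM. With all libraries, 0%, 0.0147% and 0.00795% of all genes were called. No member had an unadjusted p under 0.05, against 330 of 13601, 701 of 13562 and 412 of 12580 genes in either direction.

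The populations of one age share identifiers in their labels, which were read as marking 1 animal, so the score can be followed within an identifier. At P0 the score was lower in pGM than in HPC in 3 of 3 control identifiers (mean difference -0.11 ± 0.11 SD) and higher in 4 of 4 MLL-ENL identifiers (0.20 ± 0.15). In GMP it was lower than in HPC in 4 of 4 controls (-0.29 ± 0.22) and in 4 of 4 MLL-ENL (-0.13 ± 0.09). At 10 weeks, by the labels, it was higher in pGM than in HPC in 4 of 4 MLL-ENL identifiers (0.33 ± 0.15), by least (0.12) in the one labelled 73, and in 1 of 4 controls (-0.06 ± 0.15). Without the identifier 73 it was higher in 3 of 3 (0.40 ± 0.03). In 73 the granulocyte-monocyte markers of both these libraries went against their labels, and with the labels exchanged the score would be lower in pGM. In the (x2) set pGM were above HPC in 3 of 4 controls (0.04 ± 0.06) and in 3 of 3 MLL-ENL (x2) identifiers (0.13 ± 0.21), and GMP were above HPC in all 4 controls (0.16 ± 0.11) and all 3 MLL-ENL (x2) identifiers (0.27 ± 0.22).

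**Figure D4:**
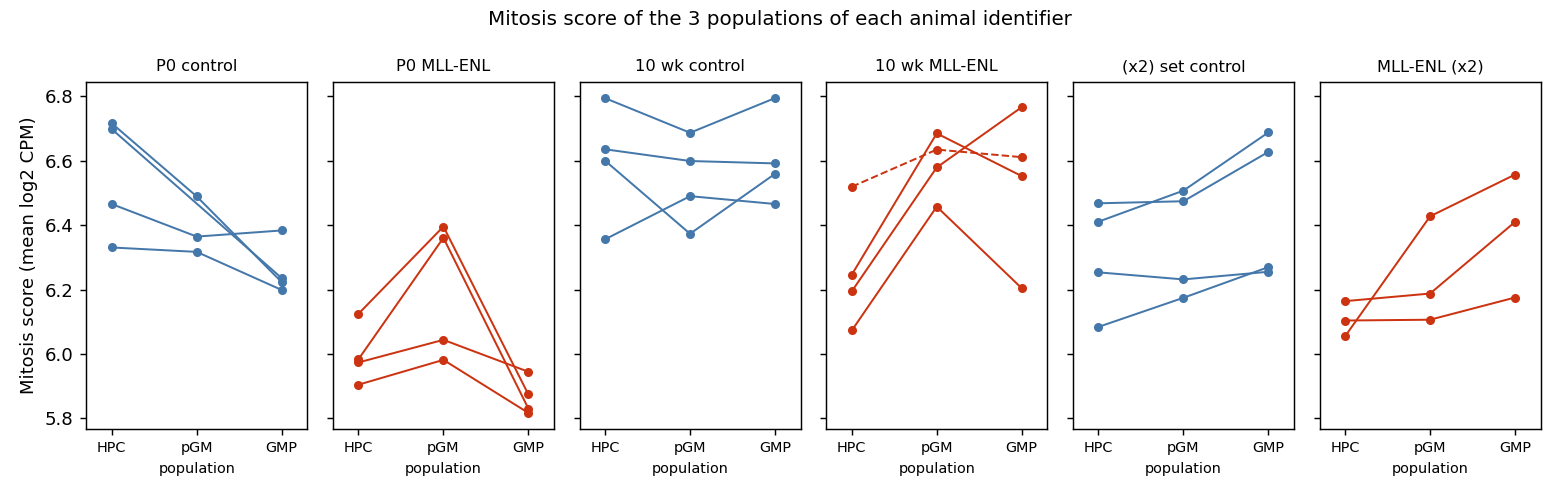
Mitosis score (y axis, mean log2 CPM) of HPC, pGM and GMP (x axis), with libraries of one identifier joined by a line, controls in blue and MLL-ENL in red; the dashed line is the identifier 73, and one P0 control has no pGM library. P0 MLL-ENL lines peak at pGM in 4 of 4 cases, whereas no P0 control line goes up from HPC to pGM.

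Along the control populations few members were called in fits without a block. With the shared identifier as a block more were called, mostly in the (x2) set, as given below. There the block also called 12.8% to 24.3% of all genes in each direction, so those counts do not set the members apart. The comparisons of populations, and those of ages, use the control libraries that the genotype comparisons also use, so their values are not independent of those above. From HPC to pGM at P0, Nusap1 was called lower, against 4.52% of all genes. It read 234, 199.6, 264 and 199.6 CPM in HPC and 133, 158 and 145 in pGM, without overlap (-0.62 ± 0.17, adjusted p = 0.0167). Leaving out HPC 4, pGM 2 or pGM 5 ended this call, leaving out HPC 5 gave 2 called members, and DESeq2 called 3. Nusap1 was at 108, 133, 84.9 and 119.9 CPM in P0 GMP and had the same order at 10 weeks, with means of 255 ± 27.2, 185 ± 17.8 and 152 ± 17.6 CPM, where the steps were not called (adjusted p = 0.0756 and 0.192). From pGM to GMP at P0 no member was called (13.9% of all genes, with 3 members at an unadjusted p under 0.05 against 23.6% of all genes), and none in either step at 10 weeks (6.22% and 15.7% of all genes, with 3 members each at an unadjusted p under 0.05 against 18.2% and 28.1%). Without pGM 87 or GMP 76 there was 1 call from pGM to GMP at 10 weeks, and DESeq2 called 1 from HPC to pGM. With the shared identifier as a block, 1 member was called lower in each of the first 3 of these steps (Nusap1, Cdc25c and Spc25, against 7.41%, 10% and 7.96% of all genes) and 2 were called from pGM to GMP at 10 weeks (against 23%), Bub1 higher (0.46 ± 0.15) and Cenpf lower (-0.65 ± 0.16).

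In the (x2) set's controls, Cenpe and Mki67 were called higher from HPC to pGM, against 5.85% of all genes. Cenpe had 36.9, 33.1, 21.1 and 20.02 CPM in HPC and 64.8, 66.8, 59.3 and 63.3 in pGM (1.21 ± 0.20, adjusted p = 0.000278). Mki67 had 94.2, 79.8, 36.3 and 57.6 CPM in HPC and 119.8, 132, 101 and 118 in pGM (0.83 ± 0.27, adjusted p = 0.0467). Neither gene overlapped, but 1 call was left with RLE scaling or without HPC 5898, HPC 5899 or any one of the 4 pGM libraries. At 10 weeks in the main set, the same step gave Cenpe 0.24 ± 0.29 and Mki67 0.15 ± 0.35, neither called, and the difference between the sets was not tested. With the identifier as a block, 8 members were called in this step, 4 higher (Cenpe, Mki67, Cenpf and Cenpa, against 12.8% of all genes) and 4 lower (Nusap1, Prc1, Spc25 and Ect2, against 14%). From pGM to GMP none was called without the block (22.6% of all genes, 4 members at an unadjusted p under 0.05 against 33.5% of all genes, and 1 call without GMP 5899) and 17 with it. Of these 13 were higher, against 23.1% of all genes, among them Aurkb (0.40 ± 0.06), Plk1 (0.40 ± 0.07), Birc5 (0.38 ± 0.06) and Anln (0.44 ± 0.09), and 4 lower, against 24.3%, Nusap1 (-0.51 ± 0.09), Cenpf, Prc1 and Kif23.

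In control GMP, 38 of 40 members were positive at 10 weeks against P0 (median 0.33, against -0.04 over all genes), and 4 were called higher, against 4.29% of all genes. Ect2 read 55, 64.7, 55.4 and 47.7 CPM at P0 and 95.6, 101, 83.7 and 83.3 at 10 weeks, without overlap (0.67 ± 0.17, adjusted p = 0.00555). Anln had 25.5, 34.1, 29.5 and 16.1 against 49, 60.3, 30.02 and 47 CPM (0.79 ± 0.22), Ttk 35.1, 35.1, 31.2 and 27 against 53.9, 34.2, 47.9 and 57.1 (0.56 ± 0.17) and Bub1 53.9, 75.5, 59.9 and 49.4 against 63.3, 126, 74.9 and 125 (0.67 ± 0.22). These 3 overlapped, and the count moved with single libraries: 10 without P0 control 3, 9 without 10 week control 80, 2 without P0 control 4 or 10 week control 88, and 1 without P0 control 5, while DESeq2 called 7. In pGM none was called (9.16% of all genes), with a median of 0.21, 7 members at an unadjusted p under 0.05 (22.8% of all genes) and 1 call without 10 week control 76.

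In control HPC the median age difference was 0.04, and 2 of 40 members were called lower at 10 weeks, against 9% of all genes. Cenpa was at 120.1, 114, 118 and 105 CPM at P0 and 47.9, 48, 60.8 and 69.1 at 10 weeks (-1.02 ± 0.21, adjusted p = 0.00031), without overlap. Cdc25c was at 47.5, 35.2, 47.9 and 37.7 against 22.9, 22.6, 30.6 and 39 CPM (-0.56 ± 0.20, adjusted p = 0.045), with overlap, and 1 call was left without P0 control 2 or 5 or 10 week control 76 or 80. For Cenpa in pGM the difference was -0.60 ± 0.22 (adjusted p = 0.0737), again without overlap, and in GMP 0.06 ± 0.20. Whether these differ between populations was not tested.

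Control HPC were higher at 12 than at 6 months in 35 of 40 members (median 0.25, against -0.02 over all genes), 10 of them without overlap (4.49% of all genes), and 3 were called higher, against 0.421% of all genes. Ttk had 40.8, 44.8, 42 and 48 CPM at 6 months and 62.6, 64.2, 66.1 and 58.1 at 12 months (0.52 ± 0.11, adjusted p = 0.0388). Ckap2l had 126, 132, 126 and 135 against 201, 195, 173 and 172 CPM (0.52 ± 0.10) and Prc1 211, 223, 221 and 205 against 364, 368, 298 and 274 (0.60 ± 0.13). All 12 month libraries were above all 6 month libraries in these 3 genes. The calls were lost when any 1 of the 8 libraries was left out, with no filter on low counts, or with only these groups fitted, and DESeq2 called 7. Incenp went the other way, from 29.8 ± 4.03 to 23.5 ± 1.54 CPM (-0.34 ± 0.15), and was not called.

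**Figure D5:**
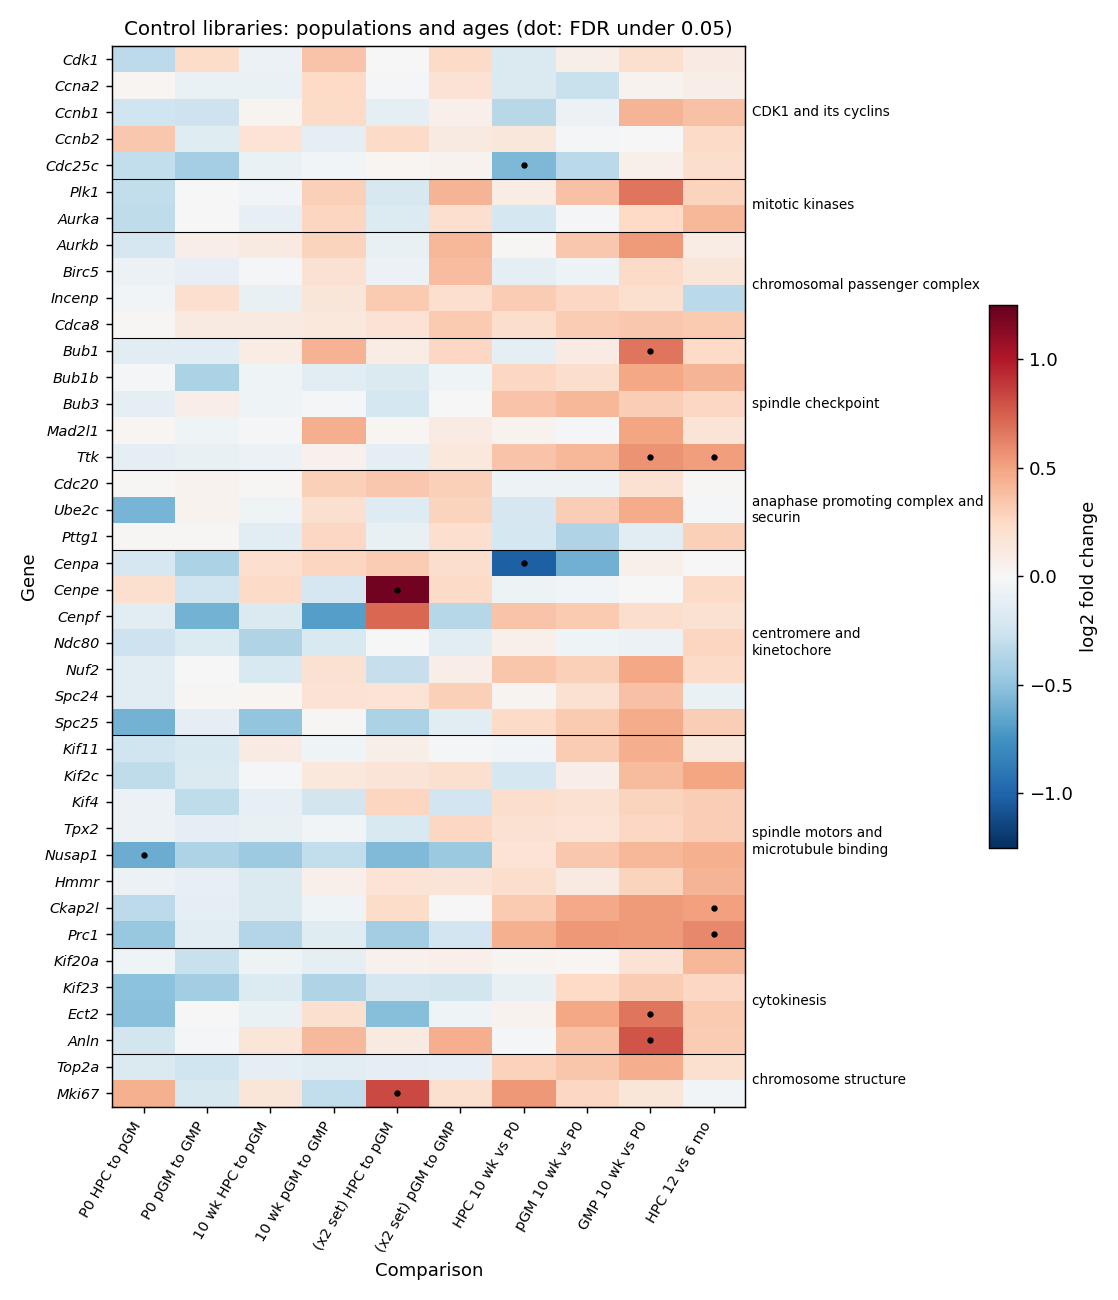
Log2 fold change (colour) of the 40 mitosis genes (rows, by role) between control populations and ages (columns; the second-named population against the first, and the older age against the younger); a dot marks an adjusted p under 0.05. GMP at 10 weeks against P0 and HPC at 12 against 6 months are mostly red, Cenpa is lower at 10 weeks in HPC, and Cenpe and Mki67 are higher in pGM of the (x2) set.

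Over the 22 groups the members did not vary alike. On the log2 CPM scale, the range of group means was widest for Mki67 (2.18), Cenpf (2.16), Nusap1 (2.11) and Prc1 (2.05) and narrowest for Pttg1 (0.45) and Bub3 (0.61). Mki67 went from 32.1 ± 13.5 CPM in P0 MLL-ENL HPC to 137 ± 21.5 in control GMP and 138 ± 38.4 in MLL-ENL (x2) pGM of the (x2) set, whereas Pttg1 lay between 45.7 ± 6.05 CPM in 6 month control HPC and 63.3 ± 17.5 in MLL-ENL (x2) GMP. P0 MLL-ENL GMP was the lowest group for 20 members and P0 MLL-ENL HPC for 8, and 12 month control HPC was the highest for 17. These ranges and ranks run across sets of libraries, so differences between sets are part of them. Control HPC of 10 weeks had a mitosis score of 6.60 ± 0.18 in the main set and 6.30 ± 0.17 in the (x2) set. Members whose longest annotated transcript was longer had wider ranges (Spearman 0.48 over 40 genes measured in the same libraries, a description only). Of the CDK inhibitors, which oppose the kinases of the cycle, Cdkn1c was called lower in both steps at P0 and at 10 weeks, with log2 fold changes of -1.90 ± 0.47 and -2.44 ± 0.52 at P0 and -1.68 ± 0.45 and -2.23 ± 0.60 at 10 weeks, in steps where the members' medians lay between -0.14 and 0.10. In the (x2) set it had -1.81 ± 0.62 from HPC to pGM, not called (adjusted p = 0.0622), and was called lower from pGM to GMP (-2.55 ± 0.78), while Cdkn1a was called higher and then lower (1.05 ± 0.20 and -0.82 ± 0.19).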

How the data were processed

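Per the labels' protocols, a Qiagen kit (RNeasy micro plus) was used for RNA and a Clontech SMARTer kit for libraries. The values are raw counts of reads per gene, deposited as 1 table, which the authors made with STAR 3.0.4, Subread and featureCounts 1.4.5, per the submitters' processing notes. The build, the annotation and whether counting used strand are not given in these sources. Of 41391 rows, 41388 are mouse genes and 3 are human, and symbols came from GENCODE vM21 (GRCm38). The members took 0.267% to 0.719% of a library's counts. The 120 pairs of libraries within groups differed by more than counting noise, so none was counted as a duplicate.

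edgeR 4.0.16 (R 4.3.3) was used with filterByExpr, TMM scaling and the quasi-likelihood test, fitted over all libraries of a set: 14899 genes for P0 and 10 weeks, 13059 for 6 and 12 months and 14260 for the (x2) set. P-values were adjusted over all genes tested. Log2 CPM used a prior count of 2. DESeq2 1.42.0, RLE scaling, no filter, only the compared groups, a replicate block and leaving out each library were alternatives, and the identifier within genotype as a block was added after seeing the data. The scripts were tested on simulated data. The members and gene lists were chosen with earlier results of these data known.

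Genes named with values follow this rule: per comparison, up to 4 called members with the smallest p in every library, and Cdk1, Ccnb1, Birc5 and Mki67 where none passed. Other members are named by role group. Genes named outside the rule (such as Hmmr in P0 GMP, Nusap1 beyond its called step, Cdkn1c and Incenp at 12 months) were chosen after their values were seen. Same-numbered libraries were taken as paired where their deviations from the group means all correlated above 0.1. This was so for P0 pGM (0.19 to 0.45) and P0 GMP (0.21 to 0.54), and for all steps between populations, whose libraries share identifiers in the labels. At P0, control and MLL-ENL libraries have different identifiers and share only a number. Their pairing in pGM and GMP, and the calls it gave, rest on these same values. P0 HPC, from the same identifiers, fell short with 0.08. Intervals and tests cover these libraries only.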

Additional observations from a re-analysis of the deposited data

Results flagged for a closer look

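In groups of 4 libraries, a library was listed here when its gap to the nearest other was an unusually large part of the group's range (Dixon's test at the 95% level). The mitosis score and the CPM of Cdk1, Ccnb1, Birc5, Mki67, Spc24, Ube2c and Ttk gave 144 groups of values, and chance alone lists about 5% of them. There were 5. Control 1717 at 6 months stood above the other controls in the score, at 6.83 against 6.52 to 6.57, in Cdk1, at 313 against 186 to 198 CPM, and in Birc5, at 206 against 124 to 133 CPM. Cdk1 was at 309 CPM in control 4 of P0 HPC, where the others had 240.1 to 243, and at 246 CPM in MLL-ENL 3 of P0 pGM, where the others had 159 to 172.

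One pattern was listed because every library of a group went one way and every library of the other the opposite way. From HPC to pGM at P0 the score changed by 0.31 more in MLL-ENL than in control identifiers: it was lower in pGM in 3 of 3 controls and higher in 4 of 4 MLL-ENL. This difference in the score was not tested. Gene by gene, edgeR's interaction test between HPC and pGM at P0 called no member (smallest adjusted p = 0.42). With the identifier within genotype as a block it also called none (smallest adjusted p = 0.104).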

How the results depend on the processing

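Counts of called members moved with the libraries used and with the replicate block. In P0 HPC, leaving out 1 library gave 8 to 24 calls, no filter on low counts 14, RLE scaling 16, DESeq2 22 and the compared groups alone 21, against 23. The replicate block gave 29 there, but those libraries share only a number, since 1 correlation was 0.08 and 3 of 4 libraries correlated best with their own number. The share of all genes called with the block in P0 HPC is not given, so 29 cannot be set against 23. The block gave 1 call for MLL-ENL in P0 pGM and 4 in P0 GMP, where DESeq2 gave 1 and leaving out a library 0 to 1. In the steps between populations the block gave 1 from pGM to GMP at P0, 1 from HPC to pGM and 2 from pGM to GMP at 10 weeks, and 8 and 17 in the (x2) set. It changed no other count beyond 1.5 times. DESeq2 gave 3 calls from HPC to pGM at P0 and 1 at 10 weeks, 7 for GMP between P0 and 10 weeks and 7 between 6 and 12 months. Fitting only the compared groups gave 2 from HPC to pGM at P0, 1 from pGM to GMP at 10 weeks, 2 from pGM to GMP in the (x2) set, 1, 2 and 1 between P0 and 10 weeks for HPC, pGM and GMP, and 0 between 6 and 12 months. No filter gave 1 for HPC between P0 and 10 weeks and 0 between 6 and 12 months, and RLE scaling 1 from HPC to pGM in the (x2) set. Leaving out a library gave 0 to 2 calls from HPC to pGM at P0, 0 to 1 from pGM to GMP at 10 weeks, 1 to 3 and 0 to 1 for these steps in the (x2) set, 1 to 3 for HPC, 0 to 1 for pGM and 1 to 10 for GMP between ages, 0 between 6 and 12 months, and 0 to 1 for the difference between P0 and 10 weeks in HPC. As a median over members the score differed by -0.38 from HPC to pGM at P0, 0.21 from pGM to GMP at 10 weeks and 0.53 for GMP between ages. With 1 library left out the median also turned sign for HPC between P0 and 10 weeks (-0.02 to 0.14), from HPC to pGM at 10 weeks (-0.12 to 0.03) and in the (x2) set (-0.11 to 0.06), and for (x2) against MLL-ENL in GMP (-0.12 to 0.13). Of 1614 alternatives of 112 single-gene results, 1545 kept direction and side of the threshold, 63 lost and 6 gained the call, and none reversed. The causes of these shifts were not tested, and depth limited no member.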
